A study of Mus musculus with 12 samples.

Results

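The mature miRNAs of the hairpins Mir10a and Mir10b, which lie in the HoxB and HoxD clusters of the mouse genome, were followed in injured livers. They were taken by name, under a rule that sets no threshold on a measured value: mmu-miR-10a-5p, mmu-miR-10a-3p, mmu-miR-10b-5p and mmu-miR-10b-3p, which are 4 of the 1929 mature mouse miRNAs in the count table. All 4 passed the filter on low counts that left 607 miRNAs for testing. Small RNA had been sequenced from the livers of 12 C57BL/6 mice, 1 library per mouse, in a model of hepatic fibrosis made with carbon tetrachloride (CCl4), a solvent that injures hepatocytes. In the PZH group, 6 mice received CCl4 by intraperitoneal injection and, by mouth into the stomach (intragastric), PZH, the Chinese herbal and animal remedy Pien Tze Huang. In the water group, 6 mice received the same CCl4 injections and intragastric double distilled water. Every mouse had therefore been given CCl4, no uninjured liver was analysed here, and the labels give no age, dose, duration or batch. The comparison asks which liver miRNAs differ between PZH-treated and water-treated mice with CCl4 injury.

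A miRNA is cut from a hairpin that leaves a 5p and a 3p strand, and one of them is usually loaded into an Argonaute protein far more often than its partner. The loaded strand recognises messenger RNAs mainly through its seed, bases 2 to 8, and lowers their translation and stability. The mir-10 family is ancient. Its mouse relatives include miR-99, miR-100 and miR-125, and the copies miR-10a and miR-10b have stayed among the Hox genes, which set position along the body axis. In human endothelial cells miR-10a is known to restrain inflammatory NF-kB signalling, and in human breast cancer cells miR-10b is known to act on HOXD10 and to favour invasion.

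The mature sequences are shown because the 5p strands are near copies while the 3p strands are more easily told apart. They are RefSeq sequences on GRCm38.p6, written 5′ to 3′ with the seed (bases 2 to 8) in capitals.
mmu-miR-10a-5p: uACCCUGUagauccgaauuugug
mmu-miR-10b-5p: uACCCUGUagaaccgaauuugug
mmu-miR-10a-3p: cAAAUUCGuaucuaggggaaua
mmu-miR-10b-3p: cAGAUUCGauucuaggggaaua
Both 5p strands are 23 bases long and identical at 22 of them. The single difference is U12A, with the miR-10a base first and positions counted from 1 at the 5′ end. The 3p strands are 22 bases long, identical at 19, and differ by A3G, U9A and A10U. Among 1647 miRNAs of the table with a RefSeq sequence, the seed ACCCUGU was found in these 2 5p strands and in no other. The seeds of miR-10a-3p and miR-10b-3p each occurred once.

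The hairpins show where the strands come from, with both mature strands in capitals.
Mir10a: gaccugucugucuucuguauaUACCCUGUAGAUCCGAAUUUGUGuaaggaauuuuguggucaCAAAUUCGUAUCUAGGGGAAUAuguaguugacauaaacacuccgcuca
Mir10b: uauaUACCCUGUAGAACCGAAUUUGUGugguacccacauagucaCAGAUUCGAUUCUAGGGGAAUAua
Mir10a lies at chr11:96317165-96317274 on the plus strand of GRCm38. In the GENCODE vM21 annotation it overlaps no other gene, begins 11044 bases after the end of Hoxb5 and ends 993 bases before the start of Hoxb4. Mir10b lies at chr2:74726070-74726137 on the plus strand, inside introns of annotated Hoxd3 and Hoxd4 transcripts of the same strand. The relatives miR-99a-5p, miR-99b-5p and miR-100-5p carry another seed.
mmu-miR-99a-5p: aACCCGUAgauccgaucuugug
mmu-miR-99b-5p: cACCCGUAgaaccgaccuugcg
mmu-miR-100-5p: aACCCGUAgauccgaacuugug
The longest run of bases that miR-10a-5p shares with miR-99a-5p is 10 bases, with miR-99b-5p 5 bases and with miR-100-5p 11 bases. The run shared with miR-99b-5p stops at base 12 of miR-10a-5p, the base that differs in miR-10b-5p. Runs shared with miR-10b-5p were not computed.

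Total counts were 6065480 to 10436478 per library in the PZH group and 4961913 to 20211784 in the water group. Levels below are CPM, counts divided by the library total and brought to a common size, after TMM scaling, which centres the bulk of miRNAs between libraries, and tests are edgeR's quasi-likelihood test with Benjamini-Hochberg adjustment over all 607 miRNAs. The label liver was checked on miR-122-5p, the miRNA that defines hepatocytes: it averaged 107905 ± 13911 CPM in PZH livers and 104137 ± 8000 CPM in water livers (SD, n = 6 each). No source says that replicate numbers pair mice. In bulk liver RNA, fewer cells of a type and less of a miRNA per cell cannot be told apart.

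With PZH, none of the 4 miRNAs passed the test. The call rate among all tested miRNAs was 21.3% (129 of 607, 60 higher and 69 lower), and 0 of the 4 were called at an adjusted p under 0.05. At an unadjusted p under 0.05 the count in this test was also 0, while limma-voom called miR-10b-3p. In some alternatives edgeR's unadjusted p fell below 0.05 without an adjusted call. Without the filter on low counts it was 0.00482 for miR-10b-3p and 0.0101 for miR-10b-5p. Without water mouse 2 it was 0.0320 for miR-10a-3p. The PZH and water ranges overlapped for each of the 4, whereas they did not for 61 of the 607 tested miRNAs (10%). The median log2 fold change of PZH over water was -0.47 over the 4, 1 of them positive, and -0.03 over all tested miRNAs. The miR-10a strands were even between mice. The miR-10b strands were low in several PZH mice and not in others.

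miR-10a-5p was the dominant product of both loci and the miRNA of rank 18 by mean CPM among the 1929. Its level was 13612, 10590, 10972, 9592, 11981 and 12268 CPM in PZH mice 1 to 6, against 10270, 9888, 11895, 12397, 11683 and 10415 CPM in water mice 1 to 6. The groups overlapped almost entirely, with 1 PZH mouse below and 1 above every water mouse. The means were 11503 ± 1416 CPM with PZH and 11091 ± 1028 CPM with water (SD, n = 6 each). The log2 fold change was 0.05 with an SE of 0.09 and a 95% interval of -0.13 to 0.24, and edgeR's adjusted p was 0.793. In linear terms the interval was a PZH level of 0.911 to 1.18 times that of water under TMM scaling. The log2 fold change moved to 0.12 with upper-quartile scaling and to 0.14 with a filter of 10 CPM in 6 libraries (edgeR adjusted p of 0.440 and 0.261 in that order).

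miR-10a-3p, the less abundant strand of the same hairpin, had rank 159. PZH mice 1 to 6 had 111, 125, 136, 123, 152 and 128 CPM, and water mice 1 to 6 had 147, 130, 159, 159, 140 and 147 CPM. Of the PZH mice, 4 lay below every water mouse, while PZH mice 3 and 5 lay among them. The means were 129 ± 13.6 CPM with PZH and 147 ± 11.1 CPM with water (SD, n = 6 each). The log2 fold change was -0.19 (SE 0.09, 95% interval -0.39 to 0.01), and the adjusted p by edgeR was 0.184. The change shrank to -0.11 with upper-quartile scaling and to -0.10 with the filter of 10 CPM, without a call.

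miR-10b-5p was far less abundant than its near copy, at rank 118, and differed widely between PZH mice. Its level was 495, 42.0, 320.1, 321, 163 and 57.6 CPM in PZH mice 1 to 6, against 349, 454, 495, 398, 419.7 and 237 CPM in water mice 1 to 6. PZH mice 2, 5 and 6 lay below every water mouse, PZH mice 3 and 4 lay within the water range, and PZH mouse 1 was level with the highest water mouse. The counts behind the low values were 363, 1452 and 477 in PZH mice 2, 5 and 6, and the lowest count among water mice was 1186, in mouse 6. The means were 233 ± 177 CPM with PZH and 392 ± 90.7 CPM with water (SD, n = 6 each), and the medians were 242 and 409 CPM in the same order. The log2 fold change was -0.75 with an SE of 0.45 and a 95% interval of -1.71 to 0.21, with an edgeR adjusted p of 0.283. limma-voom, which averages log values, gave a log2 fold change of -1.23 and an adjusted p of 0.0843. The interval corresponds to a PZH level of 0.305 to 1.16 times that of water, so a group difference was neither shown nor bounded closely.

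miR-10b-3p, its partner strand, had the same pattern at a much lower level, with rank 346. PZH mice 1 to 6 had 11.1, 1.27, 8.39, 13.4, 4.05 and 1.45 CPM, and water mice 1 to 6 had 9.92, 15.8, 16.7, 11.1, 13.6 and 8.79 CPM. PZH mice 2, 5 and 6 were again the lowest, and 4 of the 6 PZH mice lay below every water mouse. These levels rest on 72, 11, 89, 129, 36 and 12 counts in PZH mice and on 145, 304, 128, 100, 153 and 44 counts in water mice. Exact Poisson 95% intervals, which cover counting error only, were 0.636 to 2.28 CPM in PZH mouse 2, 0.748 to 2.53 CPM in PZH mouse 6 and 2.84 to 5.61 CPM in PZH mouse 5. The interval of the lowest water mouse, mouse 6, was 6.39 to 11.8 CPM and overlapped none of those 3. PZH mouse 3, also below every water mouse, had an interval of 6.74 to 10.3 CPM, which overlapped that of water mouse 6. The means were 6.61 ± 5.12 CPM with PZH and 12.7 ± 3.25 CPM with water (SD, n = 6 each). The log2 fold change was -0.94 (SE 0.45, 95% interval -1.89 to 0.01), the unadjusted p 0.0511 and the adjusted p 0.156 by edgeR. With limma-voom it was -1.42 with an adjusted p of 0.0382, the only 1 of 21 alternatives for this strand that passed the threshold; the adjusted p over those 21 ran from 0.0382 to 0.290.

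**Figure D1:**
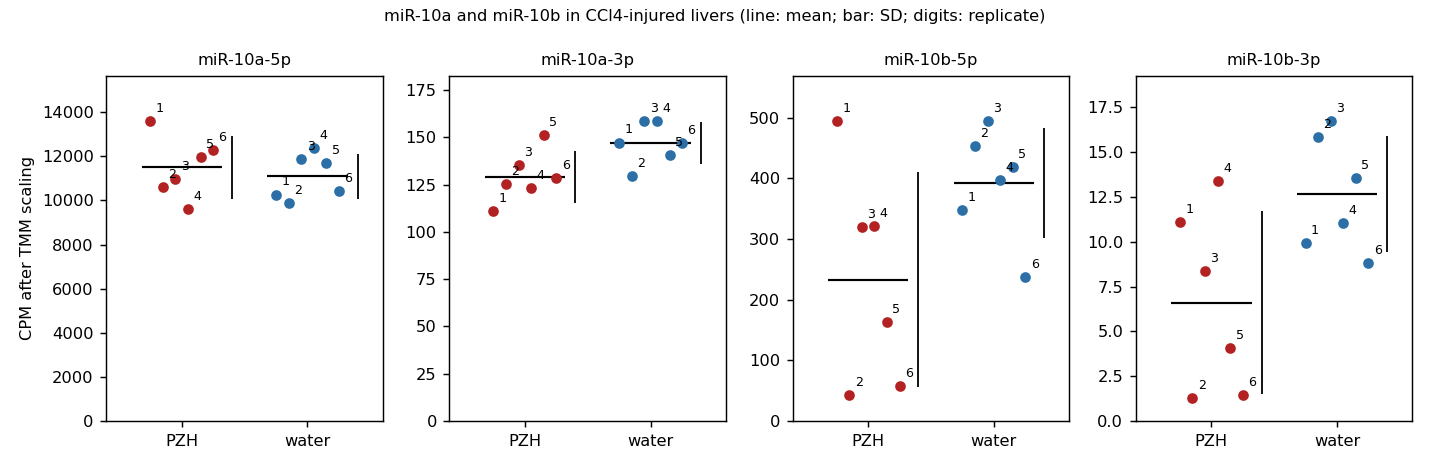
CPM after TMM scaling (y axis, linear from 0, own scale per panel) of miR-10a-5p, miR-10a-3p, miR-10b-5p and miR-10b-3p in 6 PZH and 6 water livers; points are mice with their replicate number, the horizontal line is the mean and the vertical bar the SD. In both miR-10b panels PZH mice 2, 5 and 6 lie lowest, while the miR-10a-5p groups overlap.

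The spread between PZH mice was much wider for miR-10b than for miR-10a. The highest PZH level of miR-10b-5p was 11.8 times the lowest, and the highest water level was 2.09 times the lowest. For miR-10b-3p these ratios were 10.5 with PZH and 1.91 with water. The coefficient of variation of miR-10b-5p was 75.8% among PZH mice and 23.1% among water mice, and that of miR-10b-3p was 77.4% among PZH mice and 25.7% among water mice.

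On the log2 CPM scale, the SD of miR-10b-5p was 1.45 among PZH mice and 0.38 among water mice, beside medians over the 607 tested miRNAs of 0.33 with PZH and 0.26 with water. Ordered by SD among PZH mice, miR-10b-5p was number 2 of 607 and miR-10b-3p, with an SD of 1.40, number 4. Those ranked 1 and 3, miR-346-5p and miR-128-1-5p, averaged only 1.28 CPM each and are named here because of their rank. Among the 174 that averaged 100 CPM or more, a limit chosen after the values were seen, miR-10b-5p had the largest SD among PZH mice and the SD of rank 6 among water mice. Over all 607, the miR-10a strands were among the steadier miRNAs. The SD of miR-10a-5p was 0.18 with PZH and 0.13 with water, ranks 489 and 490 of 607. That of miR-10a-3p was 0.15 with PZH and 0.11 with water. Among the 174 they lay nearer the middle, ordered from the largest SD. There miR-10a-5p had ranks 97 with PZH and 93 with water, and miR-10a-3p had ranks 118 and 110. No test of the difference in spread was made.

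**Figure D2:**
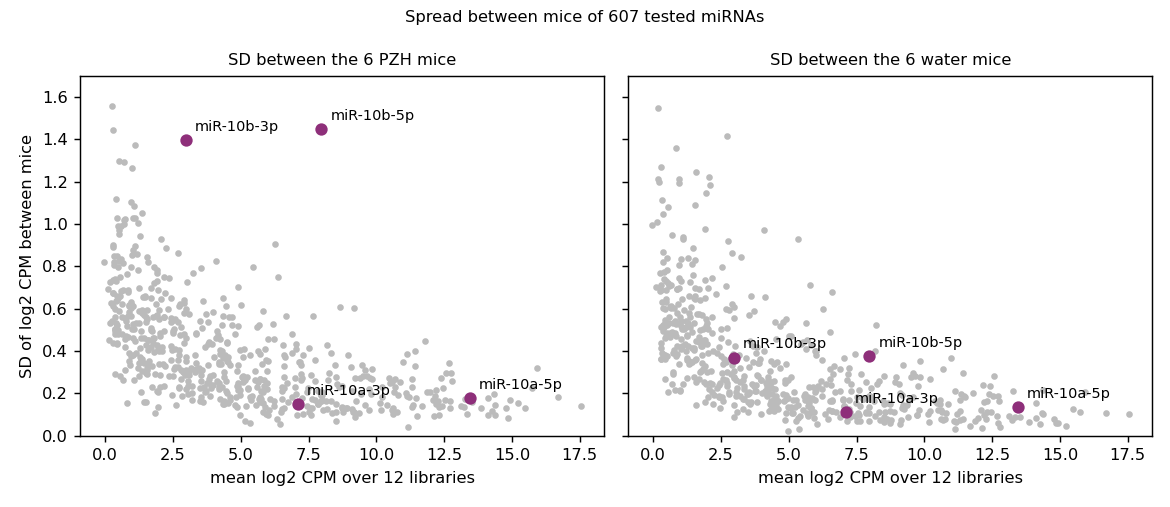
SD of log2 CPM between mice (y axis) against mean log2 CPM over 12 libraries (x axis) for the 607 tested miRNAs, in PZH mice (left) and water mice (right); grey points are miRNAs and purple points the miR-10a and miR-10b strands. Among PZH mice miR-10b-5p (1.45) and miR-10b-3p (1.40) stand well above miRNAs of like abundance, and among water mice they are 0.38 and 0.37.

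Both strands of miR-10b moved together across mice, while no such relation was found between miR-10a-5p and miR-10b-5p. Correlations of log2 CPM were computed for 3 pairs over the 12 libraries, with permutation p-values from 100000 resamples. For miR-10b-5p and miR-10b-3p Pearson's r was 0.98 (permutation p = 2e-05, 6e-05 adjusted over the 3 pairs). Spearman's rho was 0.89 (permutation p = 0.00038, adjusted 0.00114). Within the PZH group r was 0.97 (exact permutation p = 0.00694), and within the water group it was 0.90 (exact permutation p = 0.00139). Without PZH mice 2 and 6, the libraries farthest from the median, r was 0.88 (permutation p = 0.00189).

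For miR-10a-5p and miR-10b-5p r was 0.04 (permutation p = 0.904, adjusted 0.957) and rho was 0.15 (permutation p = 0.651). Without PZH mice 1 and 4, farthest on miR-10a-5p, r was -0.09 (permutation p = 0.794). Within the PZH group r was 0.13 (exact permutation p = 0.833) and within the water group 0.37 (exact permutation p = 0.529). For both strands of miR-10a r was 0.02 (permutation p = 0.957) and rho 0.18 (permutation p = 0.573); r was 0.41 without PZH mice 1 and 4 (permutation p = 0.232). Within the PZH group r was -0.16 (exact permutation p = 0.793). Within the water group it was 0.72 with a rho of 0.77 (exact permutation p = 0.117 and 0.103 in that order). Whether r differs between the groups was not tested. The sources used here do not say how reads matching both 5p strands were assigned, and a single base tells them apart.

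**Figure D3:**
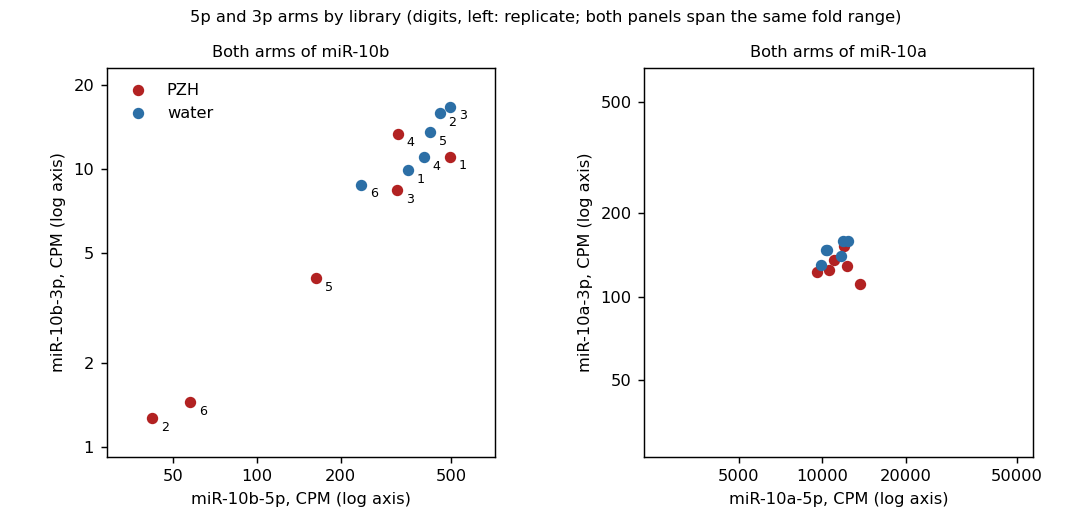
Level of the 3p strand (y axis, CPM, log scale) against the 5p strand (x axis, CPM, log scale) in 6 PZH (red) and 6 water (blue) livers, for miR-10b (left, with replicate numbers) and miR-10a (right); both panels span the same fold range. The miR-10b points run along a diagonal (r = 0.98) with PZH mice 2, 6 and 5 at its low end, and the miR-10a points form 1 tight group.

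The share of each gene in the summed 5p counts was taken from counts of strands of equal length, 23 bases. Whether both strands were captured and assigned alike was not tested. miR-10a-5p made up 96.5% to 99.6% of the summed 5p counts in PZH mice (median 97.9%) and 95.6% to 97.8% in water mice (median 96.6%). As a share of miR-10a-5p, miR-10b-5p was 3.64%, 0.397%, 2.92%, 3.35%, 1.36% and 0.469% in PZH mice 1 to 6, against 3.39%, 4.59%, 4.16%, 3.21%, 3.59% and 2.27% in water mice 1 to 6. PZH mice 2, 5 and 6 again lay below every water mouse. The log2 ratio of miR-10a-5p to miR-10b-5p (pseudocount of 1) averaged 6.11 ± 1.44 with PZH and 4.85 ± 0.35 with water (SD, n = 6 each), a difference of 1.26 with a two-sided exact permutation p of 0.0693. That p fell below 0.05 in 3 of 15 alternatives. They were without PZH mouse 1 (difference 1.53, exact permutation p = 0.0346), without PZH mouse 4 (exact permutation p = 0.0476) and without water mouse 6 (1.38, exact permutation p = 0.0303). In the other 12 it did not, and the exact permutation p reached 0.139. The difference ran from 0.89 to 1.53 over the 15.

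With miR-10a-5p making up nearly all of it, the sum of the 5p strands, which share their seed, had a spread like that of miR-10a-5p. The summed 5p level was 11736 ± 1475 CPM with PZH and 11483 ± 1065 CPM with water (SD, n = 6 each). Tested as 1 feature, the sum had a log2 fold change of 0.03 (SE 0.09, 95% interval -0.16 to 0.22) and an edgeR adjusted p of 0.886.

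The ratio of 5p to 3p counts shows which strand of a hairpin dominates. For miR-10a it was 122, 84.6, 80.9, 77.9, 79.0 and 95.5 in PZH mice 1 to 6, against 69.7, 76.3, 74.9, 78.0, 83.1 and 70.7 in water mice 1 to 6. For miR-10b it was 44.1, 30.3, 37.7, 23.8, 39.3 and 36.8 in PZH mice 1 to 6, against 34.9, 28.6, 29.3, 35.7, 30.7 and 26.4 in water mice 1 to 6. The 5p strand dominated in every library for both hairpins, and by mean ratio miR-10a ranked 20 and miR-10b 32 of 137 hairpins whose strands both averaged at least 20 counts. limma called 11 of the 137 ratios different between PZH and water (8.03%), and 0 of these 2. The log2 ratio of miR-10a averaged 6.47 ± 0.25 with PZH and 6.24 ± 0.09 with water (SD, n = 6 each), a difference of 0.24 (SE 0.12, 95% interval -0.02 to 0.50, limma adjusted p = 0.217). Unadjusted, an exact permutation test of that single ratio gave p = 0.0238 and limma gave p = 0.0697. Without PZH mouse 1, the highest ratio, the difference was 0.15 (limma adjusted p = 0.348). The log2 ratio of miR-10b averaged 5.12 ± 0.32 with PZH and 4.94 ± 0.17 with water, a difference of 0.17 (SE 0.15, 95% interval -0.15 to 0.49, limma adjusted p = 0.494). It was 0.10 without PZH mouse 1, 0.28 without PZH mouse 4 (limma adjusted p = 0.198) and 0.04 with a pseudocount of 5 in place of 1.

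Other miRNAs of the Hox clusters were scarce in these livers. Of 7 named, 6 were in the table, 2 passed the filter and 0 were called; miR-196b-3p was not analysed here. miR-196b-5p, from the HoxA cluster and related to miR-196a, which is known to act on Hoxb8, averaged 3.79 ± 1.23 CPM with PZH and 4.15 ± 0.544 CPM with water (SD, n = 6 each). Its log2 fold change was -0.12 with an edgeR adjusted p of 0.832. miR-615-3p, from the HoxC cluster, averaged 1.17 CPM with PZH and 1.11 CPM with water (log2 fold change 0.09, edgeR adjusted p = 0.906), and the sign turned without PZH mouse 5 (-0.19) or water mouse 2 (-0.08). The highest counts of miR-196a-5p were 11 in a PZH library and 18 in a water library, and miR-196a-1-3p, miR-196a-2-3p and miR-615-5p had at most 10 counts in any library. miR-10a-5p, miR-10a-3p and miR-10b-5p were thus the Hox-cluster miRNAs with readily measured levels. miR-10b-3p was scarcer and fell to 1.27 CPM in PZH mouse 2.

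Of the 11 mir-10 family relatives in the table, 10 were tested, of which 1 was called higher and 2 lower with PZH, beside 21.3% called over all tested miRNAs. Their median log2 fold change was -0.03, the same as that of all tested miRNAs to 2 decimals. miR-125a-3p fell to 19.8 ± 5.11 CPM with PZH, against 29.5 ± 2.54 CPM with water (SD, n = 6 each; log2 fold change -0.57, edgeR adjusted p = 0.0125), and this call was kept in each of 21 alternatives. miR-99b-5p averaged 11137 ± 1363 CPM with PZH and 8988 ± 1358 CPM with water (log2 fold change 0.31, edgeR adjusted p = 0.0445). That call was lost without any 1 of PZH mice 1, 2, 3 and 6 or water mice 1, 3, 4, 5 and 6, with edgeR adjusted p of 0.0650 to 0.102. miR-125a-5p averaged 491 ± 72.0 CPM with PZH and 619.8 ± 91.9 CPM with water (log2 fold change -0.34, edgeR adjusted p = 0.0474). Its call was lost in 15 of 21 alternatives, including each scaling tried and leaving out any 1 of mice 3, 4, 5 and 6 of either group (edgeR adjusted p of 0.0676 to 0.174 for these). miR-99a-5p, at 46935 ± 4479 CPM with PZH and 43895 ± 3922 CPM with water, was the most abundant relative and was not called (log2 fold change 0.10, edgeR adjusted p = 0.449).

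**Figure D4:**
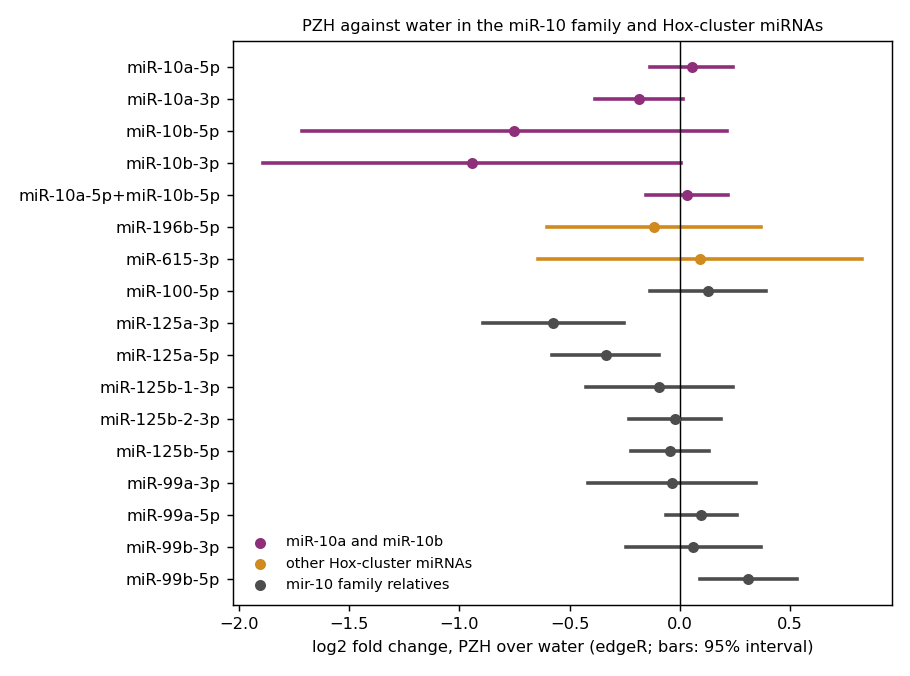
Log2 fold change of PZH over water (x axis; points) with edgeR's 95% interval (bars) for the miR-10a and miR-10b strands and the summed 5p strands (purple), the tested Hox-cluster miRNAs (orange) and the tested mir-10 family relatives (grey). The miR-10b intervals are the widest shown, -1.71 to 0.21 for miR-10b-5p, and those of miR-10a-5p (-0.13 to 0.24) and the summed 5p strands (-0.16 to 0.22) lie close around 0.

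Markers of cell types that a liver sample can hold were summed per library, and their calls stand beside the 21.3% of all tested miRNAs that were called in either direction. Endothelial markers were lower with PZH, 2 of 2 called, with sums of 10272 to 13900 CPM in PZH livers and 12863 to 17096 CPM in water livers. These 2 are strands of the same hairpin, miR-126a-3p (edgeR adjusted p = 0.00281) and miR-126a-5p (0.0445), and not separate markers. Of 5 epithelial and biliary markers 2 were called lower (863.7 to 1246 CPM with PZH and 930.8 to 2192 CPM with water). Of 5 leukocyte markers 1 was called lower (3091 to 5513 CPM with PZH and 4147 to 5972 CPM with water). Of 6 hepatocyte markers 1 was called lower (202898 to 264104 CPM with PZH and 221357 to 256415 CPM with water), and of 6 mesenchymal markers 0 were called (52799 to 92644 CPM with PZH and 63462 to 92375 CPM with water). The 1 pancreas marker was called lower (1.39 to 3.39 CPM with PZH and 1.86 to 26.6 CPM with water). Muscle markers, 0 of 2 tested called, summed to 10.7 to 43.1 CPM with PZH and 13.7 to 89.2 CPM with water, and 1 of the 3, miR-206-3p, was at 0 in at least 1 library.

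Marker levels were set beside miR-10b-5p and miR-10a-5p, as a description. After centring on group means, the correlation over 12 libraries of miR-10b-5p with the marker sums was -0.26 for endothelial, -0.09 for mesenchymal, -0.02 for leukocyte, 0.01 for epithelial and biliary, 0.03 for hepatocyte, 0.27 for muscle and -0.06 for pancreas markers. PZH mice 2 and 6, the lowest in miR-10b-5p, and PZH mouse 5, the next, stood at ranks 1, 6 and 3 of 6 PZH mice from the lowest for hepatocyte markers and at ranks 2, 6 and 3 for endothelial markers. Their ranks were 4, 2 and 5 for mesenchymal, 3, 4 and 5 for leukocyte and 3, 4 and 6 for epithelial and biliary markers. For muscle markers they were 4, 1 and 3, and for pancreas markers 2, 5 and 3. In none of the 7 lists did these 3 mice hold the 3 lowest ranks, and how often random order would give this was not tested. Most of the mesenchymal sum was a single miRNA, miR-143-3p, with means of 61879 CPM with PZH and 62656 CPM with water. For miR-10a-5p the same correlation was -0.57 with mesenchymal, -0.54 with muscle, -0.49 with pancreas, -0.38 with epithelial and biliary, -0.08 with endothelial, -0.05 with hepatocyte and 0.04 with leukocyte markers. The part of cell makeup in the miR-10 levels was not tested.

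The miRNAs most like each strand were named by the highest Pearson r of log2 CPM after centring on group means, over 12 libraries and 341 candidates that averaged 10 CPM or more (342 for miR-10b-3p). These are descriptions over libraries that share depth and scaling. For miR-10a-5p they were miR-221-5p (0.85), miR-501-3p (0.77), miR-362-5p (0.77) and miR-351-5p (0.73). For miR-10a-3p they were miR-700-3p (0.82), miR-181c-5p (0.79), miR-6239 (0.78) and miR-467a-5p (0.76). For miR-10b-5p they were miR-1948-3p (0.65), miR-690 (0.63), miR-1948-5p (0.62) and miR-505-3p (0.55). Its partner strand miR-10b-3p averaged 9.63 CPM, below the limit, and so was not a candidate there. For miR-10b-3p, miR-10b-5p came first at 0.97, followed by miR-690 (0.68), miR-1948-3p (0.66) and miR-706 (0.54). No other candidate followed miR-10b-3p as closely as its own partner strand did.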

How the data were processed

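The deposited table holds raw counts of mature mouse miRNAs in 12 liver libraries, without normalization. Per the labels' protocols, Trizol was used for extraction and a TruSeq Small RNA kit for the libraries. Per the submitters' processing notes, cutadapt, FastQC, BWA and DESeq2 were used with build GRCm38. Not given in the sources used here: versions, the counting rule and how reads matching several miRNAs were treated. Counts were tested in R 4.3.3 with edgeR 4.0.16 (filterByExpr, TMM, quasi-likelihood test, threshold 0.05 after Benjamini-Hochberg adjustment). Strand ratios were tested with limma 3.58.1 on log2 ratios of counts plus 1, for hairpins with a mean of at least 20 counts per strand. Alternatives included DESeq2 1.42.0 and limma-voom. Log2 CPM for spreads and correlations used a prior count of 2, and permutation tests used scipy 1.17.1. Scripts were tested on simulated data. The 4 miRNAs were taken by name, not by a measured value. Named with them were all other Hox-cluster miRNAs, the 4 family relatives of smallest p and the 4 miRNAs most like each strand. The choice of these miRNAs, the lists and the tests was made with earlier results of these data known, so it was not independent of them. Mice are separate libraries, and the tests of PZH against water set the group difference against the spread between mice. The libraries carry no molecular identifiers, so counting intervals cover counting error only.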

Additional observations from a re-analysis of the deposited data

How the results depend on the processing

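None of the 4 miRNAs was called by edgeR under any scaling, filter or omission of 1 library. limma-voom called miR-10b-3p (log2 fold change -1.42, adjusted p = 0.0382), and DESeq2 called none. Leaving out 1 library gave log2 fold changes of -1.11 to -0.50 for miR-10b-5p, -1.29 to -0.70 for miR-10b-3p and -0.22 to -0.14 for miR-10a-3p. For miR-10a-5p they were -0.0026 to 0.11, below 0 without PZH mouse 1. For the summed 5p strands they were -0.030 to 0.087, below 0 without PZH mouse 1 (-0.030) or water mouse 2 (-6.5e-05). Scaling and filters gave 0.05 to 0.14 for miR-10a-5p and -0.19 to -0.10 for miR-10a-3p. The strand ratio differed by 0.15 to 0.28 for miR-10a and by 0.10 to 0.28 for miR-10b on leaving out 1 library. The log2 ratio of miR-10a-5p to miR-10b-5p differed by 0.89 to 1.53. miR-615-3p ran from -0.19 to 0.19, below 0 without PZH mouse 5 (-0.19) or water mouse 2 (-0.08). The correlation of the 5p paralogs ran from -0.14 to 0.23 and that of the miR-10a strands from -0.15 to 0.55, while that of the miR-10b strands stayed between 0.96 and 0.98; these alternatives were chosen after seeing the data. The exact permutation test of the miR-10a strand ratio gave a difference of 0.24 with p = 0.0238 before any adjustment. The limma p was 0.0697 unadjusted and 0.217 adjusted. A filter of 10 CPM in 6 libraries left 344 miRNAs, of which 35 were called lower, against 69, with fewer miRNAs tested. Over 21 alternatives 46 to 78 miRNAs were called higher and 35 to 79 lower.

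Same-numbered PZH and water libraries had correlations of -0.15 to 0.08, and only for pair 1 did a water library correlate best with its own number, so the numbers were not taken as pairs. With the replicate number as a block, miR-10b-5p had a log2 fold change of -1.17 (edgeR adjusted p = 0.093) and miR-10b-3p -1.26 (0.095). The block gave 0.05 for miR-10a-5p, -0.19 for miR-10a-3p and 0.03 for the summed 5p strands, with 53 miRNAs called higher and 61 lower.

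With 6 mice per group, the spread of miR-10b among PZH mice limits what can be said of its mean. The depth limits miR-10b-3p, which rests on 11 and 12 counts in the lowest libraries. How reads shared by the 5p strands were counted is unknown.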
